A study of Mus musculus with 86 samples.

Results

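Among 86 single cells of the mouse embryonic kidney, 17 held both Six2, a transcription factor of nephron progenitors, and Foxd1, a transcription factor of the renal stroma. These double cells were chosen by the measured levels of 3 genes. Six2 and Foxd1 were each at an RPKM of 5 or more, and Mal2, a gene of epithelial vesicle transport, was below 100. RPKM is the number of reads of a gene scaled to its length and to the reads of the cell. The double cells made up 19.8% of all cells (exact Clopper-Pearson 95% interval 12 to 29.8%, counting error only). They were 39.5% of the 43 cells below the Mal2 limit with Six2 at 5 or more, and 40.5% of the 42 such cells with Foxd1 at 5 or more.

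The cells came from wild-type metanephroi of mixed background at 12.5 days post coitum (Theiler stage 20). Male and female kidneys were pooled and dissociated with trypsin. Single cells were isolated in the chambers of a Fluidigm C1 instrument, and their RNA was amplified and sequenced as full-length cDNA. Because every cell comes from 1 pool, the cells are 1 sample and not replicates. No test can be made over them, and each SD below is a spread over cells.

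The embryonic kidney grows where the ureteric bud branches into mesenchyme. Six2-positive progenitors form a cap around each bud tip, renew themselves and give rise to nephrons. Foxd1-positive stroma surrounds the cap and later forms interstitial fibroblasts, pericytes and mesangium. In lineage tracing at this age the cap and the stroma are largely separate compartments, and the stroma sends signals, among them retinoic acid and Fat4, that act on the bud and the cap.

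The double cells were set beside 15 Six2-only cells (Six2 at 5 or more, Foxd1 below 1) and 22 Foxd1-only cells (Foxd1 at 5 or more, Six2 below 1). Of the remaining cells, 11 held Six2 with Foxd1 from 1 to under 5, and 3 held Foxd1 with Six2 from 1 to under 5. A further 7 were left out for Mal2, none of which held both genes, and 11 met none of these rules. Both comparisons share the double cells, so they are not independent of each other.

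**Figure D1:**
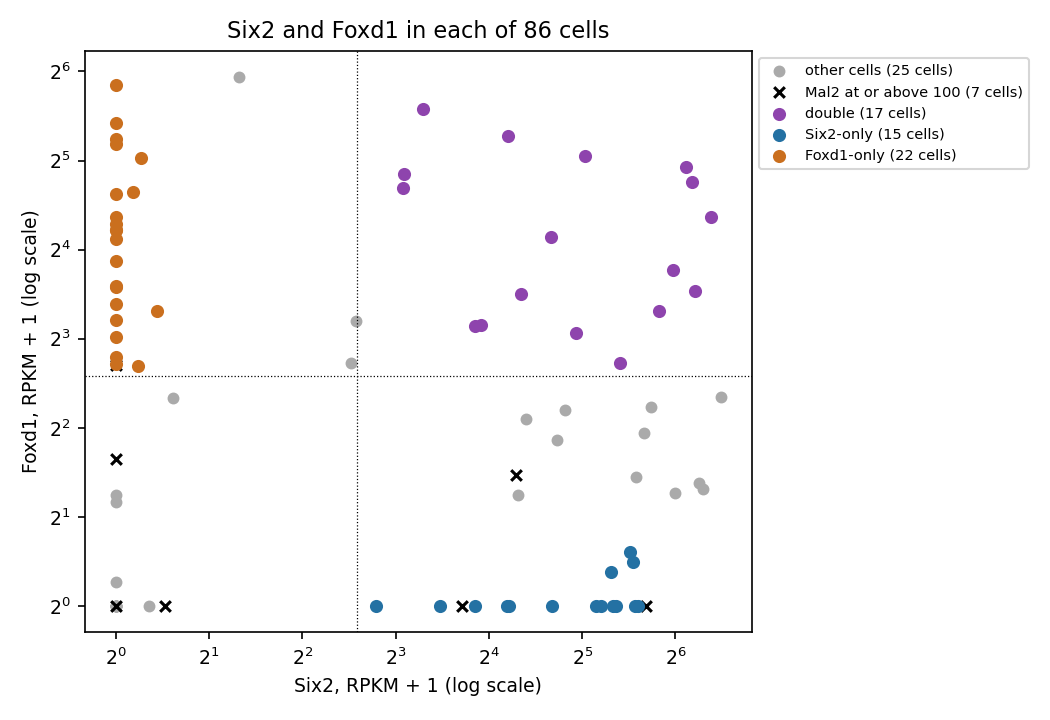
Six2 (x axis) and Foxd1 (y axis) as RPKM + 1 on log scales, 1 point per cell, with dotted lines at the threshold of RPKM 5. The 17 double cells fill the upper right, the Six2-only cells lie along the bottom and the Foxd1-only cells along the left edge, and crosses mark the 7 cells left out for Mal2.

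Six2 (chromosome 17, 86083608 to 86087594, mm9) had a lowest RPKM of 7.45, a median of 29.6 and a highest of 82.6 in the double cells. In the Six2-only cells these values were 5.94, 35.7 and 47.6. Foxd1 (chromosome 13, 99124200 to 99126660) lay at 5.63, 16.6 and 46.9 in the double cells and at 5.46, 17.1 and 56.4 in the Foxd1-only cells. The ranges of the double cells thus overlapped those of the single-gene cells for both genes, which is a description of the choice and not a result. Just outside the choice, the highest Foxd1 was 4.09 among the Six2 cells with intermediate Foxd1, and the highest Six2 was 4.97 among the Foxd1 cells with intermediate Six2. In the Six2-only cells Foxd1 was listed at 0 in 12 of 15 cells and reached at most 0.527.

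The number of genes per cell bears on whether a library holds RNA of 2 cells, and is given first. A gene was called detected at an RPKM of 1 or more. The double cells had 4739 genes at the lowest, 6580 at the median and 7076 at the highest (SD 594, n = 17 cells). The Six2-only cells had 4342, 5847 and 7100 (SD 746, n = 15 cells), and the Foxd1-only cells 3458, 6016.5 and 6845 (SD 880, n = 22 cells). The ranges overlapped, but 16 of the 17 double cells lay above the Six2-only median and none above the highest Six2-only cell. The difference of the medians of double and Six2-only cells was 733 genes.

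Of the 20 cells with most genes, the cells above the Mal2 limit left out, 8 were double. Double cells made up 17 (21.5%) of all 79 cells below that limit. The 11 Six2 cells with intermediate Foxd1 had a median of 6185 genes. The read totals are unknown, but low RPKM values are whole multiples of the worth of 1 read, which gave the relative depth of the cells (median cell 1). Its median was 1.02 in double cells (range 0.157 to 3.07), 0.931 in Six2-only cells (0.152 to 1.96) and 1.06 in Foxd1-only cells (0.412 to 1.94). Among cells with a relative depth of 0.5 to 1.5, a range chosen after seeing the data, the median was 712.5 genes higher in double than in Six2-only cells. The part of read depth in the difference in genes was not tested. Per the labels' protocols, the capture sites were viewed under a microscope to record those with 1 cell. No doublet caller was run. The part of libraries with RNA of 2 cells in any result below was not tested.

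**Figure D2:**
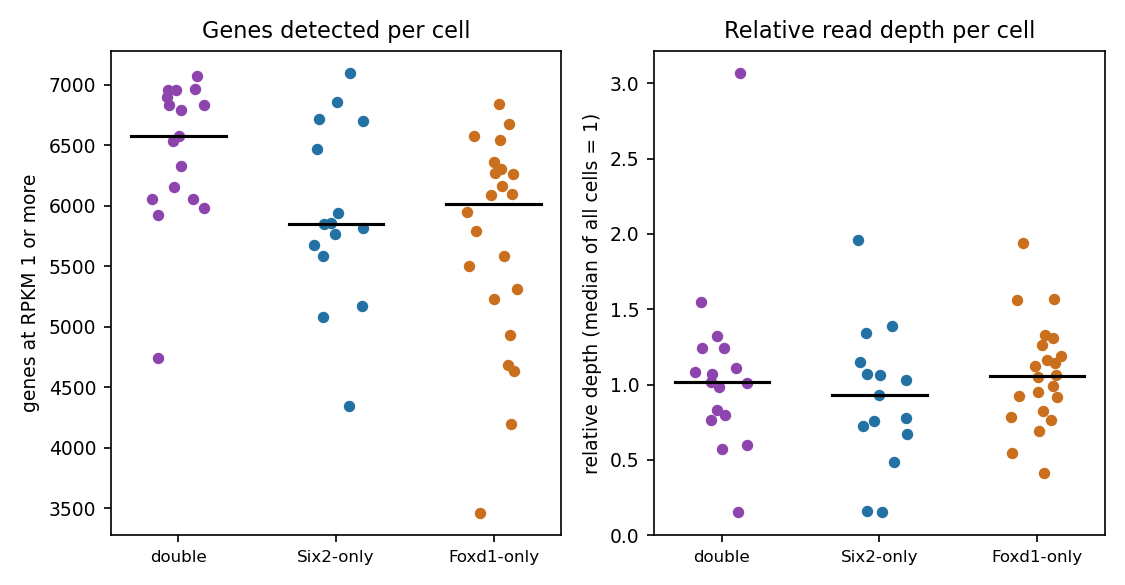
Genes detected per cell at RPKM 1 or more (left) and relative read depth (right, median of all cells = 1) in the double, Six2-only and Foxd1-only cells, 1 point per cell with bars at the medians. The double cells have the highest median number of genes, 6580, with ranges that overlap, while the medians of relative depth lie between 0.931 and 1.06.

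Markers of both compartments were present in the double cells. Without Six2 and Foxd1 themselves, at least 5 of 13 nephron progenitor markers and at least 5 of 15 stroma markers were detected in all 17 double cells. The same held for all 15 Six2-only cells and for 10 of 22 Foxd1-only cells, so this count alone does not set the double cells apart. The progenitor markers numbered 8 at the lowest, 10 at the median and 13 at the highest in double cells. They numbered 6, 10 and 12 in Six2-only cells and 1, 4 and 7 in Foxd1-only cells, so double and Foxd1-only cells did not overlap. The stroma markers numbered 5, 11 and 14 in double cells, 6, 8 and 11 in Six2-only cells, and 9, 11 and 14 in Foxd1-only cells. By number of stroma markers the median double cell equalled the median Foxd1-only cell, while the ranges of all 3 groups overlapped.

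Summed levels placed the double cells between the single-gene cells. The progenitor markers summed to 158, 732 and 2430 RPKM (lowest, median, highest) in double cells. The sums were 216, 976 and 1862 in Six2-only cells and 44.5, 175 and 652 in Foxd1-only cells. The stroma markers summed to 478, 875 and 1513 in double cells, 245, 707 and 941 in Six2-only cells, and 918, 1442 and 2227 in Foxd1-only cells. The median double cell was thus nearer to the Six2-only cells in both sums. Single genes weigh heavily on the sums. The progenitor marker Crym had means of 378 RPKM in double and 525 in Six2-only cells, beside mean progenitor sums of 757 and 975. The stroma marker Aldh1a2 had means of 239 and 70 in these groups, beside mean stroma sums of 917 and 660. The 11 Six2 cells with intermediate Foxd1 had medians of 894 for progenitor and 513 for stroma markers, and a median of 8 stroma markers detected, as in the Six2-only cells.

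**Figure D3:**
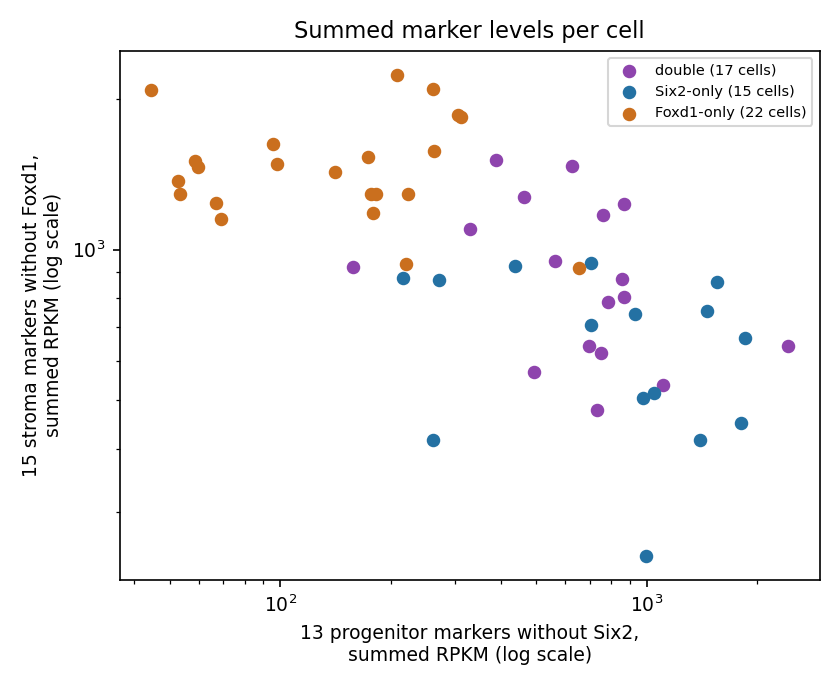
Summed RPKM of 13 nephron progenitor markers without Six2 (x axis, log scale) against 15 stroma markers without Foxd1 (y axis, log scale), 1 point per cell. The Foxd1-only cells lie at the upper left, the Six2-only cells at the lower right, and the 17 double cells between and among them.

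The double cells varied among themselves. Cell 11 had the fewest genes of them (4739), the highest progenitor sum (2430 RPKM) and the fewest stroma markers (5). Cell 26 had the lowest progenitor sum (158 RPKM) beside 12 stroma markers, and cell 44, with a relative depth of 3.07, had the highest stroma sum. Over the 17 cells Spearman's rho was -0.11 between Six2 and Foxd1 and -0.39 between the progenitor and stroma sums. It was -0.20 between Foxd1 and the stroma sum, 0.13 between Six2 and the progenitor sum, and 0.45 between Foxd1 and the interstitial matrix sum. These values describe 17 cells of 1 pool whose genes share a library and its depth.

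Differences between groups are given as the log2 ratio of (mean RPKM + 1), which understates the change of low genes. Genes were counted where the mean RPKM was at least 10 in the higher group and at least 50% of its cells had the gene detected. Of 5278 such genes, 451 (8.54%) were at least 2-fold higher in double than in Six2-only cells and 274 (5.19%) at least 2-fold lower. Taken as the difference of mean log2(RPKM + 1), 829 were higher and 256 lower. Against Foxd1-only cells, 389 (7.43%) of 5234 genes were higher and 356 (6.8%) lower, or 1026 and 256 as the difference of mean log2 values. The median over the 5278 filtered genes moved between these measures from 0.01 to 0.18 against Six2-only cells. Over the 5234 filtered genes it moved from 0.05 to 0.33 against Foxd1-only cells. Over all 12357 genes these medians moved from 0.02 to 0.12 and from 0.01 to 0.16.

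Gene lists are described with no filter, beside all genes. Without the filter, 13.6% of all genes were at least 2-fold higher in double than in Six2-only cells and 10.4% at least 2-fold lower. Against Foxd1-only cells the shares were 11.1% higher and 12.2% lower. Of all genes, 51.6% were higher at any ratio than in Six2-only cells and 50.6% higher than in Foxd1-only cells.

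**Figure D4:**
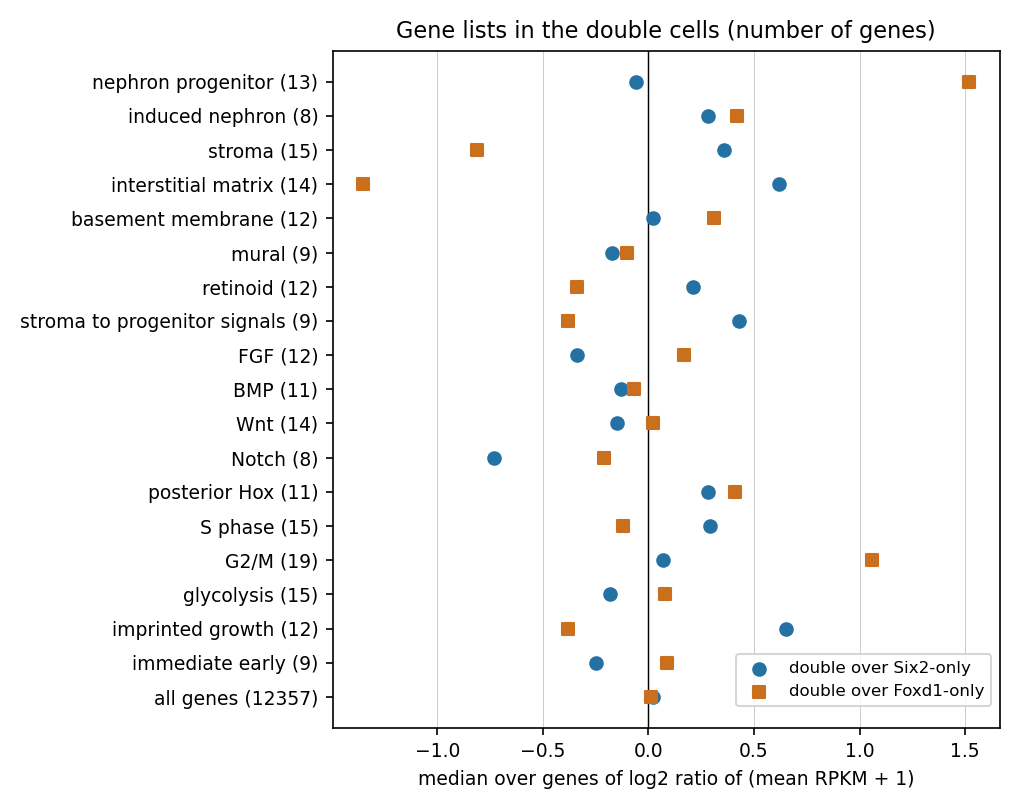
Median log2 ratio of (mean RPKM + 1) over the genes of each list, double over Six2-only cells (circles) and double over Foxd1-only cells (squares), with the number of genes in brackets. Stroma and interstitial matrix lie right of 0 against Six2-only cells (0.36 and 0.62) and left of 0 against Foxd1-only cells (-0.81 and -1.35), and all genes lie at 0.02 and 0.01.

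The nephron progenitor genes in double cells were close to those of Six2-only cells. Of 13 genes without Six2, 6 were higher and 7 lower, none by 2-fold higher and 2 by 2-fold lower, with a median of -0.06. This median lay between -0.30 and 0.13 over the alternatives tried, so it had no steady direction. Against Foxd1-only cells 10 were higher, 7 of them by 2-fold, with a median of 1.52. Eya1, a transcriptional cofactor of Six2 and its relatives, was detected in all 17 double cells, at 4.28, 51.4 and 216 RPKM. Its values were 0, 51.3 and 110 in Six2-only cells and 0, 0.103 and 14 in Foxd1-only cells. The log2 ratio was 0.20 over Six2-only and 4.99 over Foxd1-only cells. Only 1 Foxd1-only cell, at 14, reached the range of the double cells.

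Crym, which encodes the thyroid hormone binding protein mu-crystallin, was at 41.1, 372 and 1260 RPKM in double cells and at 16.9, 545 and 1440 in Six2-only cells. In Foxd1-only cells it was at 0.235, 0.995 and 409, a log2 ratio of 4.05. Spock2, an extracellular proteoglycan, was detected in 16 of 17 double cells (median 13.4), 14 of 15 Six2-only cells (median 8.04) and none of 22 Foxd1-only cells. All Foxd1-only cells had Spock2 at or below 0.287, below the lowest double cell at 0.655.

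Cited1, a transcriptional coactivator that marks the least committed progenitors, was detected in 13 of 17 double cells and 7 of 15 Six2-only cells. Its values were 0, 13.2 and 420 in double cells and 0, 0.595 and 546 in Six2-only cells. The mean was lower in double cells by the ratio of means (-0.71) and higher by the mean of log2 values (0.85), so its direction depends on the measure. Over Foxd1-only cells, 3 of 22 with Cited1 detected, the log2 ratio was 4.92. Moxd1, a monooxygenase-like protein of the endoplasmic reticulum, was detected in 16 of 17 double, 12 of 15 Six2-only and 2 of 22 Foxd1-only cells, with a log2 ratio of 5.76 over the latter. Meox2, a mesoderm homeobox factor, had ratios of 0.40 and 4.14.

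Most other progenitor regulators gave small ratios over Six2-only cells. Meox1, a homeobox factor, had a ratio of 0.78 (1.46 by the mean of log2 values) and was detected in 15 of 17 double and 9 of 15 Six2-only cells. Osr1, which acts early in kidney mesenchyme, had -0.10, Wt1, needed for progenitor survival, 0.28, and Sall1, a zinc finger factor of the cap, -0.53. Itga8, the integrin through which the mesenchyme meets the bud, had -0.06, and Gdnf, the ligand that draws the bud outward, 0.06. The sign of Osr1 (0.30) and Gdnf (-0.24) turned by the mean of log2 values. Tmem100 (-2.21, mean RPKM 8.35 against 42.3) and Rspo1, an enhancer of Wnt signalling (-1.26, 4.58 against 12.4), were the 2 members at least 2-fold lower. Both had medians below 2 RPKM in both groups, so their means rested on the cells with high values. Pax2 was low in all groups, with means of 0.444, 0.338 and 2.60 RPKM.

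Stroma genes in double cells lay mostly above those of Six2-only cells and below those of Foxd1-only cells. Of 15 genes without Foxd1, 11 were higher than in Six2-only cells, 6 by 2-fold and none lower by 2-fold, with a median of 0.36. This median stayed above 0 over the alternatives tried but its size did not hold. It was 0.14 without cell 9, 0.19 without cell 25, 0.69 by the mean of log2 values, and 1.22 without the highest cell of each group for each gene. Against Foxd1-only cells 14 were lower, 4 by 2-fold, with a median of -0.81. Vcam1, a cell adhesion molecule, was detected in 10 of 17 double cells, in none of 15 Six2-only cells and in 13 of 22 Foxd1-only cells. In double cells it ran from 0 over a median of 9.01 to 104, and in Six2-only cells it stayed at or below 0.197, a log2 ratio of 4.35. It was not detected in the other 7 double cells.

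Sfrp1, a secreted Wnt inhibitor, was at 0.105, 27.8 and 137 RPKM in double cells, 0, 0.169 and 53.8 in Six2-only cells, and 0, 52.9 and 339 in Foxd1-only cells. It was detected in 14 of 17 double and 6 of 15 Six2-only cells, with log2 ratios of 2.47 and -1.09. Pdgfra, a growth factor receptor of mesenchyme, was detected in 11 of 17 double, 1 of 15 Six2-only and 17 of 22 Foxd1-only cells, with ratios of 1.99 and -1.31. Ntn1, which encodes the guidance molecule netrin-1, was detected in 7 double cells, no Six2-only cell and 14 Foxd1-only cells, at low means of 2.12, 0.0266 and 8.53 RPKM.

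Among the transcription factors of the stroma list, the homeodomain factors Meis1 and Meis2 were detected in every cell of the 3 groups and had ratios of 0.13 and 0.15 over Six2-only cells and of -0.85 and -0.62 over Foxd1-only cells. By the mean of log2 values Meis1 turned to -0.14 over Six2-only cells. Tcf21, a basic helix-loop-helix factor of kidney mesenchyme, had ratios of -0.70 and -0.93, with overlapping ranges. Over Foxd1-only cells its sign turned by the mean of log2 values (0.06), and the median was 59.6 RPKM in double against 51.3 in Foxd1-only cells. Nr2f2, a nuclear receptor, was high in all groups, with means of 253, 238 and 292 RPKM.

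**Figure D5:**
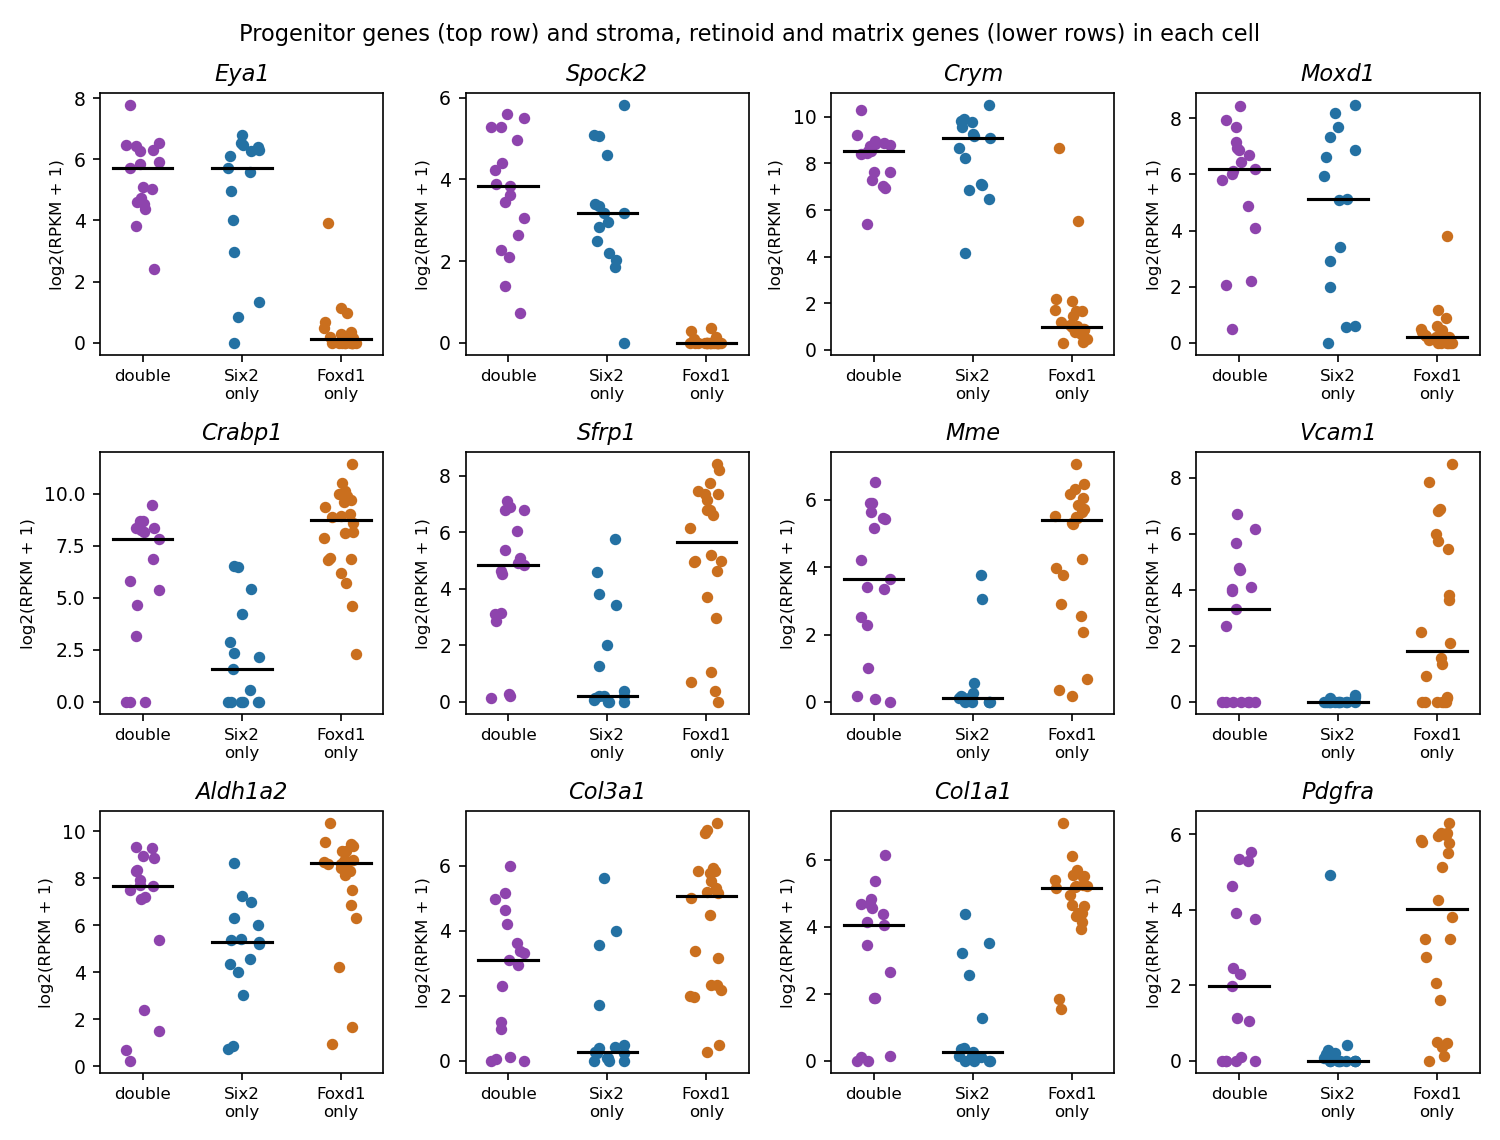
Level of 12 genes in each cell as log2(RPKM + 1), with bars at the medians, for progenitor genes (top row) and stroma, retinoid and matrix genes (lower rows), a choice made after their values were seen. The double cells lie with the Six2-only cells in the top row, and in the lower rows they spread over the range of both other groups, with a share of double cells at or near 0.

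Retinoic acid is made from retinol in steps that end with retinaldehyde dehydrogenases, and it acts through nuclear receptors. Of 12 retinoid genes, 9 were higher than in Six2-only cells, 3 by 2-fold and 1 lower by 2-fold, with a median of 0.21. Against Foxd1-only cells 5 were higher and 7 lower, with a median of -0.34. Crabp1, a cytoplasmic carrier of retinoic acid, was at 0, 230 and 705 RPKM in double cells, 0, 2.00 and 92.7 in Six2-only cells, and 3.94, 426 and 2740 in Foxd1-only cells. The ratios were 3.56 and -1.43, and it was not detected in 3 of 17 double cells. Aldh1a2, the main retinaldehyde dehydrogenase of the stroma, was at 0.177, 206 and 654 in double cells and 0.674, 38.6 and 408 in Six2-only cells, with ratios of 1.76 and -0.74.

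Rara, a retinoic acid receptor gene, was the other member at least 2-fold above Six2-only cells, with ratios of 1.51 and 0.22. Rarb, another receptor gene, had 0.36 and -0.58. Crabp2 was detected in every cell of the 3 groups, with means of 194, 196 and 327 RPKM. The dehydrogenases Aldh1a1 and Aldh1a3 had means below 0.1 RPKM in all 3 groups. Rxra, a partner receptor, had a mean of 0.134 in double against 7.16 in Six2-only cells, and 1 Six2-only cell reached 91.6. Its ratio of -2.85 was -0.98 without the highest cell of each group. In a second deposited table, with its own RPKM values, 12 of the double and 11 of the Six2-only cells were listed. Ratios over these cells were 1.95 for Aldh1a2 and 3.30 for Nrk, against 1.76 and 2.94 over all 17 and 15 cells in the first table. Meox1 was at 0.07 there against 0.78, Moxd1 at -0.34 against 0.11, and Osr1 at 0.29 against -0.10, so the last 2 turned. Both the RPKM values and the set of cells differed, and their parts in these changes were not told apart.

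Genes of the interstitial matrix followed the stroma genes. Of 14, 11 were higher than in Six2-only cells, 6 by 2-fold, and 1 was lower by 2-fold, with a median of 0.62. Against Foxd1-only cells 13 were lower, 10 by 2-fold, with a median of -1.35. Col1a1, a chain of type I collagen, was at 0, 15.5 and 69.5 RPKM in double cells, 0, 0.201 and 20 in Six2-only cells, and 1.93, 35 and 135 in Foxd1-only cells. It was detected in 13, 5 and 22 cells, with ratios of 2.11 and -1.05. Col3a1 had 1.17 and -1.58, and Fn1, which encodes fibronectin, 1.28 and -1.10. Vcan, a large proteoglycan, went the other way, with means of 62.6, 108 and 34.7 RPKM and ratios of -0.78 and 0.83. Lum, another proteoglycan of the list, was detected in no double cell and in 3 cells of each other group.

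Genes of the basement membrane, which lies under epithelia, did not follow this order, with 6 of 12 higher than in Six2-only cells, none by 2-fold in either direction, and a median of 0.02. Against Foxd1-only cells 7 were higher, 2 by 2-fold, and 5 lower, 3 by 2-fold, with a median of 0.31. The collagen chains Col4a1 (1.22) and Col4a2 (2.08) were the 2 higher, and Fras1 (-1.58), Lama4 (-1.28) and Nid1 (-1.08) the 3 lower.

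Pairs of a gene higher than in Foxd1-only cells and a gene higher than in Six2-only cells were counted at an RPKM of 5 or more. There were 7 pairs, chosen after their values were seen, and Moxd1 and Mme of 1 pair are on no list used here. Both genes of a pair were in 5 to 9 of 17 double cells, 0 to 3 of 15 Six2-only cells and 0 to 1 of 22 Foxd1-only cells. The counts are limited by the single genes in every group. Among the 17 double cells, Eya1 was in 16, Vcam1 in 10 and both in 9. Moxd1 was in 14, Mme in 11 and both in 9. Whether the genes of a pair met more often than their single counts would give was not tested. At this level Vcam1 was in 0 of 15 Six2-only cells, Spock2 in 0 of 22 Foxd1-only cells and Eya1 in 1 of 22.

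Among the 12 highest ratios over Six2-only cells by the naming rule were those of Vcam1, Gypc, Tmtc4, Crabp1, Mme, Slc38a4, Tk1, AW551984, Zswim4, Rbpms2 and Nrk, from 4.35 down to 2.94. Of these 11 genes, 8 had a lower mean in double than in Foxd1-only cells. Mme, a surface peptidase, had 0, 11.5 and 91.1 in double cells and was detected in 13 of 17, against 2 of 15 Six2-only cells, with ratios of 3.48 and -0.59. Slc38a4, an amino acid transporter, had ratios of 3.24 and -0.22, and Nrk, a kinase of the germinal centre kinase family, 2.94 and -0.38.

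Tk1 and Zswim4 were above both groups. Tk1, a thymidine kinase of S phase, was at 0, 121 and 306 RPKM in double cells, 0, 0.261 and 75 in Six2-only cells, and 0, 34.4 and 252 in Foxd1-only cells, with ratios of 3.07 and 0.94. Zswim4 had 3.01 and 1.48. Rbpms2, an RNA-binding protein of smooth muscle, had 2.98 and 0.07, and its mean of 11.6 in double cells stood far above their median of 1.23.

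The lowest ratios over Six2-only cells were those of Grtp1, Zfp141, Tmem64, Acadvl, Itfg2, G530011O06Rik, Mogs, Adam9, Aldh16a1, Gm12238, Ccdc21 and Tnni1, from -3.13 to -2.63. Acadvl, an enzyme of mitochondrial fatty acid oxidation, was at 0, 0 and 58.8 RPKM in double cells and 0, 30.5 and 147 in Six2-only cells, and its mean in Foxd1-only cells was 7.6. Each of the 12 was detected in 1 to 6 of the 17 double cells and in 8 to 11 of the 15 Six2-only cells. The naming rule asked for a minimum share of Six2-only cells with the gene, so the lower bound of 8 follows from the choice. The low counts in double cells are favoured by it too, since the rule took the lowest ratios. These counts thus describe the choice and are not a separate result. The ranges of the groups overlapped for all 12 genes, which belong to no list used here.

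Against Foxd1-only cells, the highest ratios were those of the progenitor genes Moxd1, Eya1, Cited1, Spock2, Meox2 and Crym described above. The lowest were those of Rnase4, Sparcl1, Aga, Pdlim2, Cald1 and Map1lc3a. Rnase4, a secreted ribonuclease, was detected in 1 of 17 double and 15 of 22 Foxd1-only cells (-4.33). Sparcl1, a matrix glycoprotein, was detected in 5 double and 15 Foxd1-only cells (-3.59). Cald1, an actin-binding protein of contractile cells, was at 0, 0.36 and 13.8 RPKM in double cells and 0, 19.6 and 154 in Foxd1-only cells (-2.91, for the entry on chromosome 6 from 34548544 to 34696015). These genes were chosen for their low ratios.

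Genes called above both passed the level and share filter in the double cells. Their mean log2(RPKM + 1) was also higher by at least 1 than in each other group. They numbered 298 of all 12357 genes, 62 of them by a 2-fold ratio of means over each. Their share of the genes that could be called was not computed. By the mean of log2 values, all filtered genes had medians of 0.18 over Six2-only and 0.33 over Foxd1-only cells. For genes below both, the filter had to be passed in both other groups, so the numbers cannot be set against each other. These genes numbered 20 of all 12357, 12 of them by 2-fold. The leading genes above both were Hist3h2a, a histone H2A gene (2.54 over Six2-only and 2.15 over Foxd1-only), Pla2g6, a phospholipase (2.14 and 2.10), and Ero1l, an oxidase of the endoplasmic reticulum (2.09 and 2.54). Tmem159 (2.93 and 1.87), Dus1l, a tRNA dihydrouridine synthase (2.09 and 1.85), and Dcx, a microtubule-binding protein best known in neurons (1.84 and 2.76), followed. Dcx was detected in 9 of 17 double cells and in 2 cells of each other group.

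The leading genes below both were Hiatl1 (-2.33 and -2.10), Zfp36l2, which promotes decay of AU-rich mRNAs (-2.09 and -2.08), Mcee (-2.06 and -2.07), Rcn1, a calcium-binding protein of the endoplasmic reticulum (-1.40 and -1.71), Zfp781 (-1.39 and -1.42) and Fars2 (-1.44 and -1.36). Zfp36l2 was at 0, 2.00 and 31.7 RPKM in double cells, 0, 33.3 and 82.4 in Six2-only cells, and 0, 22.1 and 116 in Foxd1-only cells, with overlapping ranges.

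Signals between stroma and progenitors were mixed. Of 9 listed genes, 5 were higher than in Six2-only cells, 3 by 2-fold and 1 lower by 2-fold, with a median of 0.43. Fat4, the protocadherin of the stroma, was detected in 13 of 17 double, 4 of 15 Six2-only and 17 of 22 Foxd1-only cells, with ratios of 1.08 and -0.63. Wwtr1, which encodes the Hippo effector Taz, was detected in 9 double and 1 Six2-only cell (2.10), while its relative Yap1 had -0.31. Bmp4 was detected in 7 double and 6 Six2-only cells. Its ratio of means of -1.66 was -0.70 without the highest cell of each group and -0.05 by the mean of log2 values, with 1 Six2-only cell at 169 RPKM.

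In the FGF list, which holds ligands, receptors and targets, 3 of 12 genes were higher than in Six2-only cells, with a median of -0.34. Dusp6, a phosphatase induced by FGF signalling, was an exception. It was detected in all 17 double cells, at 2.30, 75.2 and 197 RPKM, against 0.0909, 19.9 and 98.7 in Six2-only cells and 0.194, 32.3 and 142 in Foxd1-only cells, with ratios of 1.46 and 1.02. Etv5, another target, had -1.0, and the receptors Fgfr1 and Fgfr2 had -0.41 and -0.28. The ligand gene Fgf10 had -0.51 over Six2-only and 2.34 over Foxd1-only cells.

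In the Notch list 2 of 8 genes were higher than in Six2-only cells, with a median of -0.73. The targets Hey1 and Heyl had ratios of -2.31 and -2.04 and were detected in 4 and 2 of 17 double cells against 7 and 7 of 15 Six2-only cells. Hes1, also a target, was detected in all 17 double cells and had 0.48. In the Wnt list 4 of 14 genes were higher (median -0.15, or 0.02 by the mean of log2 values), and in the BMP list 5 of 11 (median -0.13). Ccnd1, which drives entry into the cell cycle, was lower than in both groups, at means of 22.7, 80.5 and 55.7 RPKM and ratios of -1.78 and -1.26.

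Of 8 induced nephron genes, 5 were higher than in Six2-only cells, 2 by 2-fold, and 1 lower by 2-fold, with a median of 0.28 (-0.01 by the mean of log2 values). Ccnd1, described above, was detected in 13 of 17 double cells and Jag1, a Notch ligand, in 7. Pax8 was detected in 5 of 17 double, 7 of 15 Six2-only and 3 of 22 Foxd1-only cells, and Wnt4, the signal that starts epithelial conversion, in 4, 2 and 0 cells. Wnt4 was listed at 0 in every Foxd1-only cell. Lhx1 was detected in 1 double cell. Cdh6 was detected in 2 double cells and listed at 0 in all Six2-only cells, so no ratio is given.

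Of the genes of cell division, those of G2/M were higher than in Foxd1-only cells and those of S phase were mixed. All 19 G2/M genes were higher in double than in Foxd1-only cells, 10 by 2-fold, with a median of 1.06. Over Six2-only cells 10 of 19 were higher, with a median of 0.07 by the ratio of means and 0.94 by the mean of log2 values. Top2a, a topoisomerase of dividing cells, was detected in all 17 double cells, 10 of 15 Six2-only and 17 of 22 Foxd1-only cells, with medians of 225, 102 and 29.7 RPKM. Of the 15 S phase genes, 10 were higher than in Six2-only cells (median 0.29), and 6 higher than in Foxd1-only cells (median -0.12). By the mean of log2 values these medians were 0.64 and 0.11, so the second turned. Rrm2, a subunit of ribonucleotide reductase, had ratios of 1.06 and 0.54.

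Imprinted growth genes were mostly higher than in Six2-only cells, in 11 of 12 cases and by 2-fold in 4, with a median of 0.65. Of these 4, Dlk1, Peg10 and Meg3 had low means of 1.58, 1.76 and 4.33 RPKM in double cells, below the level filter. Against Foxd1-only cells 8 were lower, with a median of -0.38. Plagl1, a zinc finger factor that regulates other imprinted genes, was at 0, 46.8 and 194 RPKM in double cells, 0.0903, 0.877 and 56.6 in Six2-only cells, and 0.429, 53.7 and 280 in Foxd1-only cells, with ratios of 2.79 and -0.59. Mest was detected in every cell of the 3 groups, at means of 978, 563 and 986 RPKM. Igf2r, the receptor that clears Igf2, was the exception at -0.62.

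Glycolysis genes were slightly lower than in Six2-only cells in 12 of 15 cases, with a median of -0.18. Hk2, a hexokinase, had means of 41.5 and 88.2 RPKM (-1.07). Eno3, the enolase best known from muscle, was higher than in both groups, at 6.57, 172 and 388 RPKM in double cells, 0, 80.6 and 212 in Six2-only cells and 0, 0.573 and 268 in Foxd1-only cells. Immediate early genes, which tissue dissociation can induce, had medians of -0.25 over Six2-only and 0.09 over Foxd1-only cells over 9 genes. By the mean of log2 values the first turned to 0.50, and the second was 0.30. Posterior Hox genes, which set the position of the kidney along the body axis, had medians of 0.28 and 0.41 over 11 genes.

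Most markers of other cell types were low in the double cells. Of 8 ureteric bud markers, Ret was listed at 0 in all double cells, Cdh1, Gata3 and Calb1 were below 1 RPKM in all of them, and Epcam was detected in 3. The 9 mural markers summed to 1.70, 39.2 and 163 RPKM in double cells, 0.218, 24.9 and 735 in Six2-only cells, and 5.47, 91.1 and 759 in Foxd1-only cells. Acta2 and Kcnj8 were listed at 0 in all double cells, whereas Des, an intermediate filament of muscle and mesangium, was detected in 11 of 17, with a mean of 17.3 RPKM against 21.2 in Six2-only and 10 in Foxd1-only cells. The part of mural RNA in the results was not tested. Rgs5, a pericyte gene, was detected in 7 of 17 double, 3 of 15 Six2-only and 15 of 22 Foxd1-only cells. Its ratio over Six2-only cells was -1.60 and turned to 0.30 by the mean of log2 values, since 1 Six2-only cell reached 719. Of the endothelial, erythroid and neural lists, 2 of 8, 1 of 7 and 2 of 6 markers were analysed here, each detected in at most 7 double cells.

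The Y-linked genes Ddx3y, Eif2s3y, Kdm5d and Uty summed to 5 RPKM or more in all 86 cells, although the label gives a pool of both sexes. The sum had medians of 78.0 in double, 149 in Six2-only and 142 in Foxd1-only cells. Reads shared with their X-linked relatives could not be told apart from Y-linked reads. Xist, which together with these genes would mark a library with RNA of a male and a female cell, was not analysed here.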

How the data were processed

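RNA was measured in 86 single cells of 1 pool. The authors deposited RPKM values of 12360 genes. Per the file headers, the table keeps genes that pass an RPKM of 3 and gives the count of passing cells, which is 3 or more. A second deposited table of RPKM values also holds a fold between classes that the authors named, which was not used. TopHat 1.4.1, DESeq and the build mm9 are named per the submitters' processing notes, without a role. Coordinates come from the deposited table.

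The members and lists were chosen with earlier results of these data known. Cells were grouped by Six2, Foxd1 and Mal2, and these 3 genes were left out of all counts. Symbols listed more than once (26) were kept apart by identifier. Group means of RPKM were compared as log2 ratios with a pseudocount of 1. No test was made and no cell was removed for its number of genes. Relative depth was recovered from the most frequent ratio of values below 2 RPKM between cells. All ratios of cell pairs lay within 0.02 (log2) of the fitted depths.

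Genes were named by a rule: a gene needed a mean RPKM of 10 and detection in 50% of cells in the higher group, and a difference of mean log2(RPKM + 1) of at least 1 in the same direction. Named were the 12 highest and 12 lowest ratios over Six2-only cells, the 6 highest and 6 lowest over Foxd1-only cells, and the 6 leading genes above and below both. Each list added the top 2 and bottom 2 members with a mean of at least 1 RPKM, and 17 genes were always named. Other list members, the gene pairs and the cells described singly were chosen after their values were seen. The alternatives were other thresholds for the groups, detection limits, pseudocounts, averages and filters, and leaving out cells. A few results are not reported here. Calculations were checked on simulated data. Python 3.11.15, numpy 2.4.6, pandas 2.3.3, scipy 1.17.1 and matplotlib 3.10.9 were used.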

Additional observations from a re-analysis of the deposited data

How the results depend on the processing

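With a threshold of RPKM 10 for Six2 and Foxd1, 9 cells were double. The genes at least 2-fold lower than in Six2-only cells then numbered 513, and 649 were higher and 573 lower than in Foxd1-only cells. With a threshold of RPKM 3, 23 cells were double. The median number of genes in double cells was 5656 with detection at RPKM 3 and 7911 above 0. By the mean of log2 values 829 genes were higher than in Six2-only and 1026 higher than in Foxd1-only cells. With no filter on low values, 1685 were higher and 1281 lower than in Six2-only cells, and 1373 higher and 1509 lower than in Foxd1-only cells. Without the highest cell of each group for each gene, the median of the stroma list over Six2-only cells was 1.22. Over cells with 5600 to 7000 genes, a range chosen after seeing the data, 427 genes were lower than in Six2-only cells. By the mean of log2 values, 19 of 134 named genes had the opposite sign over Six2-only cells and 13 over Foxd1-only cells. With a main ratio of at least 2-fold, these were Rgs5 (0.30), Tcf7 (0.14), Plk1 (0.08), Map1lc3a (0.08), Sparcl1 (0.07) and Aga (0.03) over Six2-only cells, and Grtp1 (0.09) and Pax2 (0.09) over Foxd1-only cells. Tcf7 turned to 0.91 without the highest cell. The cause of these changes was not tested. Of 134 ratios of named genes, 57 moved by over 1.5 times with the mean of log2 values, 37 with a pseudocount of 0.1, 25 without the highest cell and 3 without cells of few genes, beside those that turned.

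Leaving out each double cell in turn, also chosen after seeing the data, gave 449 to 501 genes higher and 277 to 300 lower than in Six2-only cells, and 404 to 438 higher and 340 to 385 lower than in Foxd1-only cells. The median of the progenitor list ran from -0.18 to 0.02 and that of the stroma list from 0.14 to 0.44. The count of cells with Xist and a Y-linked gene, and the alternatives that rest on it, were not run, since Xist was not analysed here. No paired analysis was possible because all cells come from 1 pool and the labels put them in 1 group. The cells are 1 sample, low values of single cells rest on few reads, and the number of reads is unknown.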
